A study of Rattus norvegicus with 132 samples.

Results

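Endothelial cells line blood and lymph vessels, and 10 genes that mark them were followed by their symbols across all groups of a rat study of radiation injury to the gut: Pecam1, Cdh5, Kdr, Vwf, Tek, Esam, Emcn, Plvap, Eng and Cldn5. Of these 10 genes, 9 had a row among the 21837 genes of the count tables, and Cldn5 was not analysed here. The libraries were made from total RNA of colon or jejunum epithelium of Sprague Dawley rats, in 22 groups of 6 libraries, and the labels call the replicates biological without naming the rats. Irradiated rats had 5 fractions of 4 Gy to the abdomen, with tissue collected on day 4 or on day 7. In each tissue and at each of these days there were 5 irradiated groups: compound Kushen injection given intraperitoneally, compound Kushen powder given orally (some descriptions call it a pill), the injected vehicle (25 mM HEPES with 0.25% Tween-80), the oral vehicle of water, and irradiation with no drug. A sixth group of each tissue was neither irradiated nor treated. Kushen is the Chinese name of the herb Sophora flavescens. Library names start with a digit, read here as 1 of 3 library series: the non-irradiated, untreated, oral vehicle and powder groups each held 3 libraries of series 1 and 3 of series 2, and every injected group belonged to series 3 and was tested only against other injected groups, so levels of injected and other groups differ in series as well.

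The endothelium forms the inner wall of every vessel, holds blood cells and plasma in, and decides where leukocytes and solutes leave. Pecam1 and Cdh5 encode adhesion proteins of endothelial junctions, Cdh5 being VE-cadherin, and Esam encodes a further junction protein that platelets also carry. Kdr is the main signalling receptor for VEGF-A, Tek (Tie2) is the receptor for angiopoietins, and Eng (endoglin) is a co-receptor for ligands of the TGF-beta and BMP family. Vwf encodes the clotting protein von Willebrand factor, Emcn a sialomucin of capillaries and veins, and Plvap the protein of the diaphragms of fenestrated capillaries, a vessel type that lies under the epithelium of intestinal villi. In the intestine, the microvascular endothelium has been studied as a target of radiation in its own right.

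RefSeq promoters, each running from 250 bases before to 50 bases after the start of the gene, were matched by symbol for 4 of the 9 measured genes: Kdr, Emcn, Plvap and Eng. Those of Eng and Plvap are printed because the levels of both genes followed the other members most closely across libraries. Both are from the assembly GRCr8, which is not the build used for the counts, at chr3:36332029-36332328 on the plus strand for Eng and chr16:18231230-18231529 on the minus strand for Plvap. They read 5′ to 3′ along the gene, and capitals mark GGAA or, for the other strand, TTCC, the core of the motif that ETS transcription factors bind, a family with roles in endothelial gene expression.
Eng: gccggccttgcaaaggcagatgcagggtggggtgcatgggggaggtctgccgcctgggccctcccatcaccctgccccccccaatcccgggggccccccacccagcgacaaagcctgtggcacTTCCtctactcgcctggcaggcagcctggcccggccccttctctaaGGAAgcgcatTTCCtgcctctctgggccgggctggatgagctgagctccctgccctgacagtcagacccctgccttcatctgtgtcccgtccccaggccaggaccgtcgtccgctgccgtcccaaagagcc
Plvap: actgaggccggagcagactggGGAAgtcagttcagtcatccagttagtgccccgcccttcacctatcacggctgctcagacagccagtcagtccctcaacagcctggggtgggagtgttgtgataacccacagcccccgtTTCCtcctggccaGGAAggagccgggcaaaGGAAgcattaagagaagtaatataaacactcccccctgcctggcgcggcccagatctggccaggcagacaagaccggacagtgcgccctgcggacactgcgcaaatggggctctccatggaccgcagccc
The Eng window held 3 matches to GGAA on either strand and the Plvap window held 4. On each, 2 of these lay within the longer motif AGGAAG. The Kdr window held 5 GGAA matches and none to AGGAAG, and the Emcn window held 8 and 2. Across 33469 RefSeq promoters of the same 300 bases, 95.8% held at least 1 GGAA match, with a median of 3, and 34.5% held AGGAAG, so a match by itself sets none of these genes apart.

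Levels are given as CPM, counts scaled to the size of each library with edgeR's TMM factors, as mean ± SD over n = 6 libraries. Total counts were 17.2 M to 19.8 M per library. Between genes the levels cannot be compared, since gene lengths were not used. All 9 genes had low counts: the highest count of any of them in 1 library was 422, and in jejunum every gene but Esam had a count of 0 in at least 1 of the 66 libraries. In non-irradiated colon Esam averaged 4.22 ± 1.38 CPM, Pecam1 1.60 ± 1.37, Vwf 1.25 ± 0.81, Plvap 1.05 ± 0.51, Eng 0.389 ± 0.141 and Cdh5 0.113 ± 0.0997. The summed level of the 9 genes ran from 4.65 to 12.8 CPM in non-irradiated colon, while 9 epithelial genes such as Epcam and Cdh1 summed to between 14264 and 17225 CPM there. The labelled epithelium was therefore seen in its own markers, and the endothelial genes made up a small share of the counts. In such bulk tissue fewer endothelial cells and less RNA per endothelial cell cannot be told apart.

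Some libraries stood apart before any comparison. In 18 of the 22 groups a single library held the highest level of at least 5 of the 9 genes, and in 5 groups it did so for all 9: powder jejunum at day 4 (replicate 4), powder colon and powder jejunum at day 7 (replicate 5 of each), oral vehicle jejunum at day 4 (replicate 4) and injected vehicle colon at day 7 (replicate 6). In 18 groups the library with the highest endothelial sum also had the highest sum of 12 fibroblast genes. Non-irradiated jejunum divided by library series: its replicates 1 to 3, of series 1, summed to 13.3, 17.1 and 3.85 CPM over the 9 genes, and its replicates 4 to 6, of series 2, to 2.04, 1.04 and 1.90 CPM. Mitochondrial transcripts took 6.27%, 7.08% and 7.73% of the counts in those 3 series 1 libraries and 21.5%, 13.1% and 21.8% in the 3 of series 2. The part of these differences in the jejunum results was not tested.

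Eng rose in irradiated colon at both days and in irradiated jejunum at day 7, and Cdh5 rose in irradiated jejunum at day 7. Esam rose in irradiated colon at day 4 alone among the comparisons with non-irradiated tissue. The other genes did not pass the test against non-irradiated tissue at either day. Eng stood at 2.32, 0.789, 2.65, 2.28, 3.96 and 7.15 CPM in irradiated untreated colon at day 4 and at 2.87, 5.74, 0.931, 0.989, 0.869 and 1.03 CPM at day 7, against 0.585, 0.415, 0.430, 0.155, 0.335 and 0.413 CPM in non-irradiated colon. Every irradiated untreated colon library was above every non-irradiated one, which held for 13.1% of all genes tested at day 4 and 20.8% at day 7. The fitted change of Eng in colon was 7.95-fold at day 4 (log2 2.99 ± 0.67, SE; edgeR adjusted p = 0.000534) and 5.39-fold at day 7 (log2 2.43 ± 0.67; adjusted p = 0.00194). At day 4 it was called in both library series, with log2 changes of 2.03 in series 1 and 3.92 in series 2 (edgeR adjusted p = 0.0346 and 0.0102). At day 7 the change was 2.73 in series 1 (edgeR adjusted p = 0.00151) and 1.65 in series 2, where it did not pass (adjusted p = 0.221). The mitochondrial share of the counts moved beside it, with 8.22% to 11.0% in irradiated untreated colon at day 4 and 3.28% to 4.89% at day 7, against 10.6% to 14.4% in non-irradiated colon, and its part in the colon results was not tested.

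The high Eng level was not limited to the untreated rats. Of the 36 irradiated colon libraries of the untreated, oral vehicle and powder groups, 34 were above the highest non-irradiated library of 0.585 CPM, as were 23 of the 24 injected colon libraries, which belong to another library series. In jejunum 19 of 36 and 12 of 24 irradiated libraries were above the highest non-irradiated library, which had 1.04 CPM. No other gene of the 9 had as many irradiated colon libraries past the non-irradiated ones: Cdh5 had 20 of 36 and 14 of 24, and Plvap had 18 of 36. What share of all genes reached such counts was not determined, so they do not set Eng apart from genes outside the 9.

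**Figure D1:**
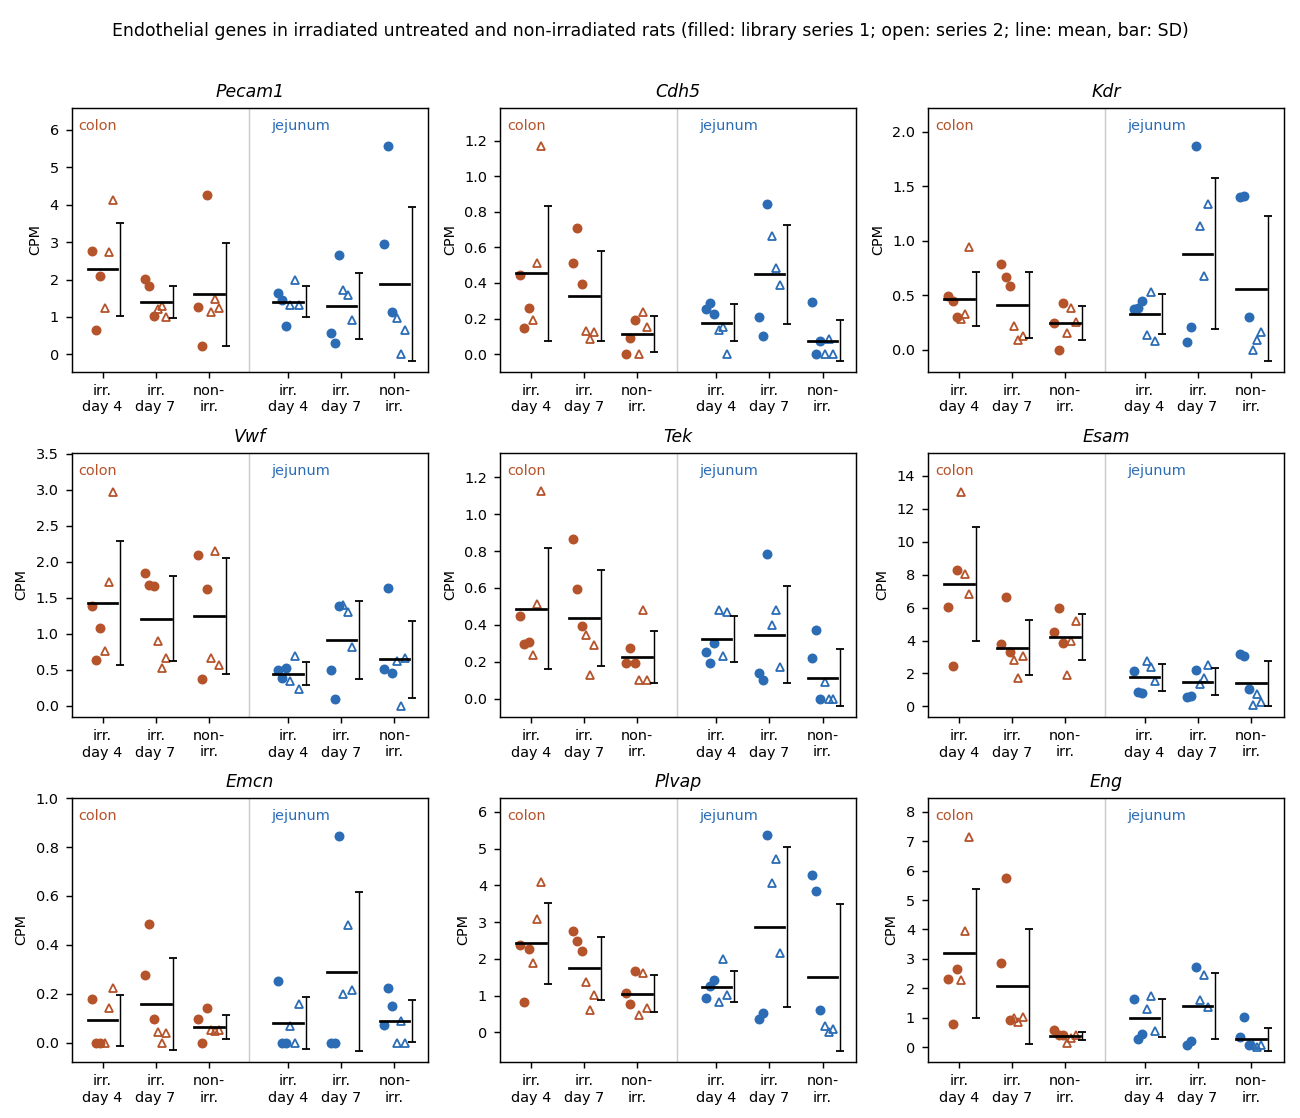
CPM of the 9 endothelial genes in each library of irradiated untreated tissue at day 4 and day 7 and of non-irradiated tissue, for colon and jejunum; circles are library series 1, triangles series 2, lines the mean and bars the SD over 6 libraries. In colon all irradiated Eng values lie above the highest non-irradiated one of 0.585 CPM, while the Pecam1 and Vwf groups overlap throughout.

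Of the 8 endothelial genes tested in colon at day 4, 2 rose and none fell, and the median log2 change was 1.00, against 0.02 over all genes tested. By the same test 24.6% of all genes were called higher in that comparison and 46.9% in either direction, so 2 of 8 is close to the background. Eng was the only one of the 8 whose groups did not overlap. Esam, the junction gene, had 6.02, 2.47, 8.27, 13.0, 8.02 and 6.84 CPM in irradiated colon at day 4, against 4.53, 5.95, 3.82, 1.91, 3.97 and 5.16 CPM in non-irradiated colon. Most irradiated libraries were above the non-irradiated ones and 1 was not, and the change was 1.75-fold (log2 0.80 ± 0.34, SE; edgeR adjusted p = 0.0485). The Esam call was lost without replicate 6 of the irradiated group (adjusted p = 0.0598), without replicate 3 of the non-irradiated group (adjusted p = 0.0715), with no filter on low counts (adjusted p = 0.0575) and in series 1 alone (log2 0.25; adjusted p = 0.723).

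Plvap had 2.36, 0.838, 2.26, 1.90, 3.08 and 4.09 CPM in irradiated colon at day 4, against 1.07, 0.784, 1.67, 0.465, 1.63 and 0.671 CPM in non-irradiated colon. All but 1 irradiated library were above the highest non-irradiated one, and the log2 change of 1.20 ± 0.52 fell just short of the threshold (edgeR adjusted p = 0.0568). Cdh5 had 0.446, 0.148, 0.261, 0.190, 0.513 and 1.17 CPM in irradiated colon, against 0, 0.0922, 0.191, 0, 0.239 and 0.155 CPM in non-irradiated colon, with a log2 change of 1.96 ± 0.86 (edgeR adjusted p = 0.0579). DESeq2 called both of these genes besides Eng and Esam (adjusted p = 0.0386 for Plvap and 0.0382 for Cdh5). The receptors Tek (log2 1.08 ± 0.59) and Kdr (0.93 ± 0.63), the junction gene Pecam1 (0.50 ± 0.48) and the clotting gene Vwf (0.18 ± 0.48) did not pass. A single library weighed on the Pecam1 result: non-irradiated replicate 3 had 4.25 CPM while the other 5 had 0.231 to 1.48 CPM. Without that library the log2 change was 1.14 (edgeR adjusted p = 0.0460). It was left out for its own high Pecam1 level, a choice that raises the fold change. The value without it is therefore no separate evidence of a rise.

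At day 7 in colon, 1 of 8 tested genes rose, Eng, and none fell, where 32.9% of all genes rose and 63.6% were called in either direction. The median change over the 8 genes was 0.76, against 0.02 over all genes tested, with 5 positive and 3 negative values. Cdh5 (log2 1.51), Tek (0.99), Kdr (0.79) and Plvap (0.73) did not pass, nor did Vwf (-0.03), Pecam1 (-0.21) and Esam (-0.24). The 2 library series differed in this count. In series 1 alone 4 genes were called higher, Eng, Cdh5 (log2 2.44; edgeR adjusted p = 0.00634), Kdr (1.59; adjusted p = 0.0317) and Tek (1.46; adjusted p = 0.0237), and in series 2 alone none were called.

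In irradiated jejunum at day 4, none of 7 tested genes was called by edgeR, 1 was under 0.05 before adjustment, and DESeq2 called 0, where 25% of all genes were called higher and 44% in either direction. Their median log2 change was -0.50, against 0.05 over all genes. Eng had 1.64, 0.289, 0.450, 1.31, 1.76 and 0.548 CPM in irradiated jejunum at day 4, against 0.369, 1.04, 0.0755, 0.0888, 0 and 0.0824 CPM in non-irradiated jejunum. The groups overlapped through non-irradiated replicates 1 and 2, and the log2 change of Eng was 1.66 ± 0.81 (edgeR adjusted p = 0.0925). Without replicate 2 it was 2.91 (edgeR adjusted p = 0.0103) and 2 genes were called, while replicate 1 still overlapped. Replicate 2 was left out for its own high Eng level, a choice that raises the fold change. The value without it is therefore no separate evidence of a rise. In series 2 alone 4 genes were called higher, among them Eng (log2 4.24; edgeR adjusted p = 0.0115), Plvap (3.79; adjusted p = 0.0326) and Esam (2.57; adjusted p = 0.00171), and in series 1 alone none were.

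At day 7 in jejunum 2 of 7 tested genes rose, Cdh5 and Eng, where 31.4% of all genes rose and 58.8% were called in either direction. The median over the 7 genes was 0.41, against 0.02 over all genes tested. Cdh5 had 0.211, 0.103, 0.845, 0.667, 0.482 and 0.389 CPM in irradiated jejunum at day 7, against 0.295, 0, 0.0755, 0, 0.0866 and 0 CPM in non-irradiated jejunum. Its groups overlapped through non-irradiated replicate 1, and the change was 4.99-fold (log2 2.32 ± 0.87; edgeR adjusted p = 0.0222). The Cdh5 call rests on few reads, with counts of 0 to 4 per library in non-irradiated and 2 to 14 in irradiated jejunum. Eng had 0.0703, 0.206, 2.72, 1.60, 2.46 and 1.38 CPM in irradiated jejunum at day 7, with the first 2 libraries inside the non-irradiated range, and the change was 4.25-fold (log2 2.09 ± 0.79; edgeR adjusted p = 0.0237). Mitochondrial shares were 3.70% to 9.00% in irradiated jejunum at day 7, against 6.27% to 21.8% in non-irradiated jejunum. Both calls held when either of the non-irradiated replicates 1 and 2 was left out, with edgeR adjusted p between 0.0038 and 0.0438. With only the groups compared in the fit, neither gene passed the filter on low counts and 0 genes were called. In series 1 alone none of the genes was called and Eng had a log2 change of 0.99 (edgeR adjusted p = 0.521), while in series 2 alone 6 genes were called and Eng had 4.81 (adjusted p = 0.00269). Plvap was low in the same 2 irradiated libraries as Eng, with 0.351 and 0.515 CPM in irradiated replicates 1 and 2 and 5.37, 4.07, 4.72 and 2.16 CPM in replicates 3 to 6, against 4.28, 3.86, 0.604, 0.178, 0 and 0.0824 CPM in non-irradiated jejunum.

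The change with irradiation was also set between the tissues. For none of the 9 genes did the jejunum change differ from the colon change in an interaction test at day 4 or day 7 (edgeR; 0 genes under 0.05 before adjustment and 0 by DESeq2), where 21.5% and 39.4% of all genes differed. For Eng the jejunum minus colon difference was -1.16 ± 1.07 on the log2 scale at day 4 and -0.22 ± 1.09 at day 7. With these standard errors above 1 on the log2 scale, a 2-fold difference between the tissues in the Eng change was not detectable. What size of difference could be detected for the other genes was not tested. In series 2 alone, 2 genes differed at day 7, Esam (log2 2.81; edgeR adjusted p = 0.00528) and Plvap (5.14; adjusted p = 0.021).

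Without irradiation, 1 of the 9 genes differed between the tissues: Esam was 3.07-fold lower in jejunum than in colon (log2 -1.62 ± 0.44, SE; edgeR adjusted p = 0.000788). Between these tissues 41.6% of all genes were lower in jejunum and 71.5% differed in either direction. Esam had 3.17, 3.04, 1.06, 0.0888, 0.779 and 0.247 CPM in non-irradiated jejunum, against the colon values above, and the groups overlapped. The Esam difference was negative in both series, at -1.06 on the log2 scale in series 1 alone, where it did not pass (edgeR adjusted p = 0.0969), and -3.25 in series 2 alone (adjusted p = 1.06e-05). The series did not call the same genes: Kdr was higher in jejunum in series 1 alone (log2 2.11; edgeR adjusted p = 0.0270) and had a log2 difference of -1.54 in series 2 alone (adjusted p = 0.342), where Plvap was lower in jejunum (-3.30; adjusted p = 0.0389). With the library number that colon and jejunum share as a block, Esam was lower in jejunum as well (log2 -2.05; edgeR adjusted p = 3.24e-05). Leaving out jejunum replicate 2 added Vwf, lower in jejunum (log2 -1.58; edgeR adjusted p = 0.0227).

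**Figure D2:**
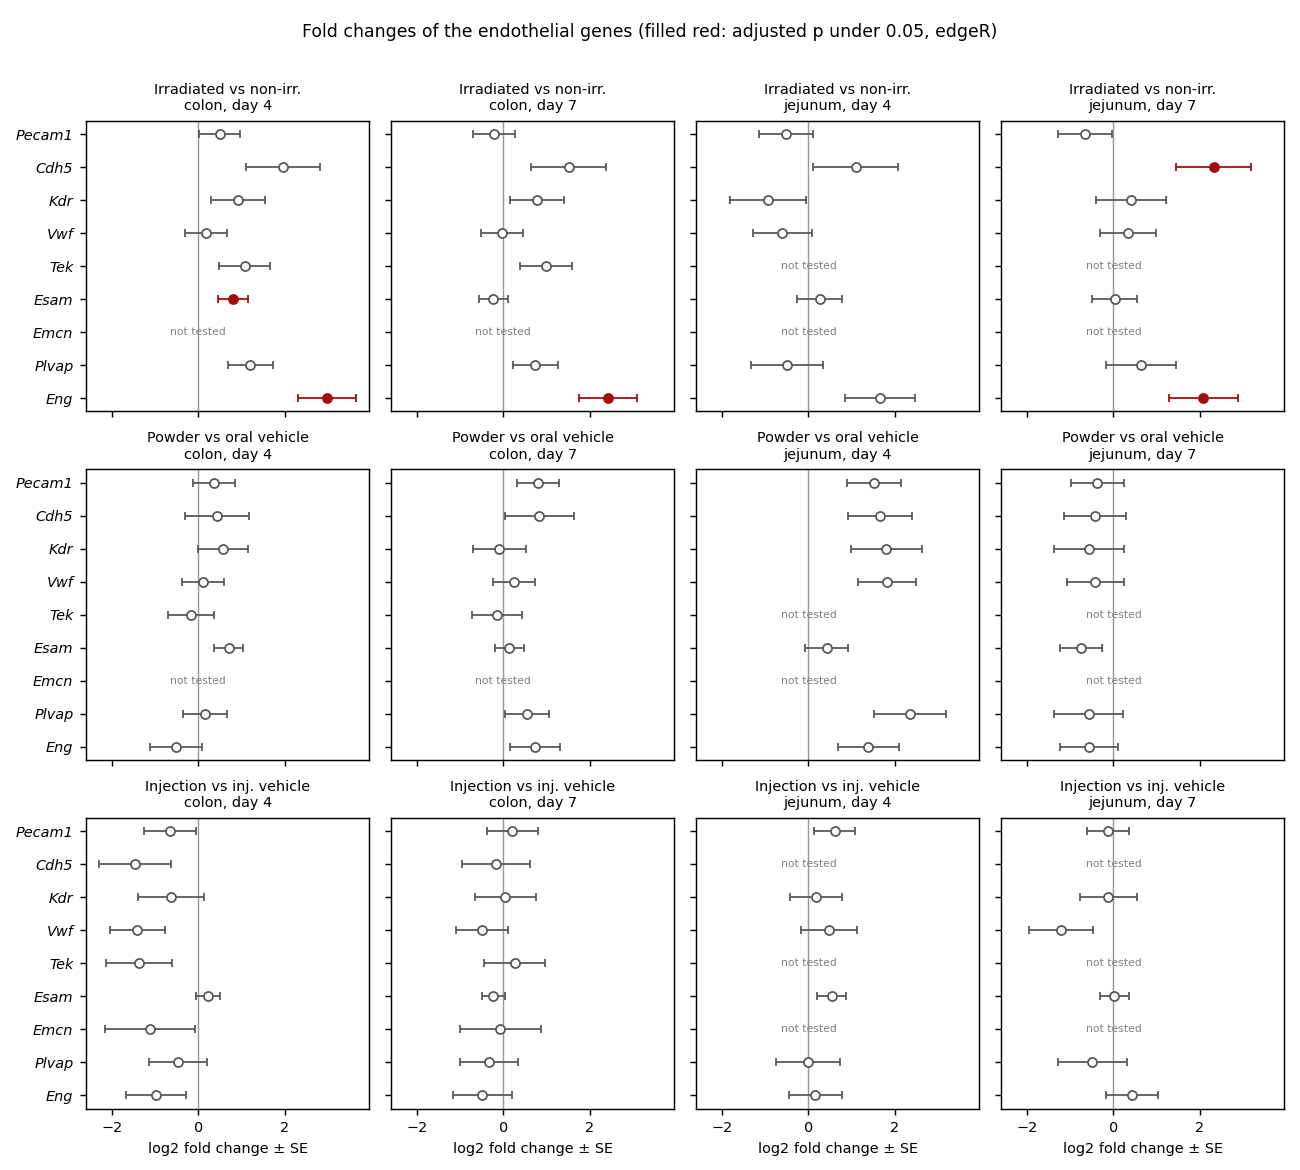
Log2 fold change ± SE of each tested endothelial gene for irradiated untreated over non-irradiated tissue (upper row), powder over oral vehicle (middle row) and injection over injected vehicle (lower row), by tissue and day, with filled red points where the edgeR adjusted p was under 0.05. Filled points occur only in the upper row, for Eng and Esam in colon at day 4, Eng in colon at day 7, and Cdh5 and Eng in jejunum at day 7.

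Other endothelial and vascular genes moved in part and in both directions. In colon 24.6% of all genes were called higher and 46.9% in either direction at day 4, and 32.9% and 63.6% at day 7. In jejunum the shares were 25% and 44% at day 4, and 31.4% and 58.8% at day 7. The list counts given here and below for irradiated over non-irradiated tissue are to be read beside these shares. Of 14 tested genes on a list of other endothelial genes, 6 rose and 1 fell in irradiated colon at day 4, with a median log2 change of 1.60. Egfl7, which encodes a secreted matrix protein of vessels, rose 3.04-fold to 6.15 ± 6.78 CPM in irradiated colon, against 1.88 ± 0.457 CPM in non-irradiated colon (edgeR adjusted p = 0.00269). Mmrn2, which encodes an endothelial matrix protein, rose 5.28-fold (edgeR adjusted p = 0.000562), and Tie1, the partner receptor of Tek, rose 3.04-fold (adjusted p = 0.0373). Rasip1, which acts in vascular tube formation, fell 1.73-fold (edgeR adjusted p = 0.000244). At day 7 in colon 5 of the 14 rose and 1 fell, with a median of 0.52. Flt1, the decoy-type VEGF receptor, was 8.34-fold higher (edgeR adjusted p = 0.00077), while Clec14a, an endothelial lectin-like gene, was 2.45-fold lower (adjusted p = 0.000307).

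In jejunum 3 of 11 tested other endothelial genes rose at day 4 and 7 of 11 at day 7, and none fell, with medians of 0.66 and 1.23. Ptprb, which encodes a phosphatase that acts on Tek and Cdh5, had the smallest p of these genes at day 4 (8.32-fold; edgeR adjusted p = 1.98e-05). It averaged 13.4 ± 8.41 CPM in irradiated jejunum and 1.57 ± 0.492 CPM in non-irradiated jejunum. Which cells these reads came from was not tested. In colon Ptprb averaged 1.09 ± 0.573 CPM in irradiated tissue at day 4 and 1.19 ± 0.695 CPM in non-irradiated tissue, and the jejunum change exceeded the colon change by log2 3.17 ± 0.70 (edgeR adjusted p = 0.000565). Rasip1, which fell in colon at day 4, rose 2.23-fold in jejunum (edgeR adjusted p = 0.000859), a difference between tissues of log2 2.02 ± 0.32 (adjusted p = 3.33e-06).

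Among 7 tested genes that guide leukocytes onto and across endothelium, 5 rose in colon at day 4 with a median of 2.08, and 2 rose at day 7. Jam3, which encodes a junction adhesion molecule also found outside endothelium, had 17.5 ± 7.97 CPM in irradiated colon at day 4 and 0.230 ± 0.138 CPM in non-irradiated colon (75.0-fold; edgeR adjusted p = 1.75e-08). The leukocyte ligands Icam1 (4.83-fold; edgeR adjusted p = 0.000878) and Vcam1 (3.92-fold; adjusted p = 0.0146) and the gut homing ligand Madcam1 (4.22-fold; adjusted p = 0.0159) rose as well. In jejunum Jam3 and Icam1 were the 2 of 5 that rose at day 4. Jam3 then had 6.30 ± 4.88 CPM in irradiated jejunum and 0.123 ± 0.197 CPM in non-irradiated jejunum.

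A list of ligands of vessel growth held those of Kdr and Tek together with others such as Adm and Dll4. Of 10 of these genes tested in colon, 3 rose and none fell at day 4 (median 0.42), and 5 rose and 2 fell at day 7. The permeability and lymphatic growth peptide gene Adm had 16.2 ± 14.2 CPM in irradiated colon at day 4 and 2.80 ± 0.655 CPM in non-irradiated colon (5.55-fold; edgeR adjusted p = 0.000758). Angpt1, the activating ligand of Tek, fell to 0.103 ± 0.155 CPM in irradiated colon at day 7, against 2.81 ± 0.98 CPM in non-irradiated colon (edgeR adjusted p = 1.91e-05). In jejunum it fell to 1.10 ± 1.57 CPM at day 4 and 0.220 ± 0.132 CPM at day 7, against 3.20 ± 1.32 CPM in non-irradiated jejunum (edgeR adjusted p = 0.00837 and 1.93e-06). Vegfa, the main ligand of Kdr, fell 1.98-fold in colon (edgeR adjusted p = 0.0354) and 3.12-fold in jejunum (adjusted p = 0.000556) at day 7. Of 9 genes of this list tested in jejunum 4 rose and 2 fell at day 4 and 3 rose and 2 fell at day 7. The Notch ligand Dll4 rose 4.13-fold at day 4 to 64.4 ± 29.3 CPM in irradiated jejunum, against 15.7 ± 6.80 CPM in non-irradiated jejunum (edgeR adjusted p = 3.44e-06). The 9 endothelial genes summed to 4.95 to 9.70 CPM in the same irradiated libraries. Which cells the Dll4 reads came from was not tested.

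Receptor genes other than the 9 gave 3 higher and 1 lower of 12 tested in colon at day 4, and 3 higher and 2 lower at day 7, with medians of 0.37 and -0.31. Tgfbr2, the TGF-beta receptor that signals together with Eng and that many cell types express, averaged 135 ± 87.1 CPM in irradiated colon at day 4 and 30.7 ± 6.03 CPM in non-irradiated colon (4.38-fold; edgeR adjusted p = 1.88e-05). In jejunum 4 of 10 rose at day 4 and 6 of 10 at day 7 and none fell, with medians of 0.50 and 1.25. Of the endothelial transcription factors, 4 of 10 rose and 3 fell in colon at day 4, 3 rose and 4 fell at day 7, and in jejunum 2 of 7 rose and 1 fell at day 4 and 1 rose and 3 fell at day 7. Klf2, the factor induced by blood flow, was higher in all 4 comparisons, by 2.79-fold and 3.08-fold in colon and 4.69-fold and 4.78-fold in jejunum at day 4 and day 7 (edgeR adjusted p between 0.000136 and 0.000867). Lymphatic endothelial genes gave 3 of 5 higher in colon at day 4 and 1 of 5 at day 7, and 1 of 5 and 3 of 5 in jejunum. The lymphatic chemokine gene Ccl21 rose to 10.7 ± 7.47 CPM in irradiated colon at day 4, against 1.01 ± 0.68 CPM in non-irradiated colon (11.6-fold; edgeR adjusted p = 0.00671).

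Genes of other stromal cells moved beside these. In colon, 11 of 12 tested fibroblast genes rose at day 4 with a median log2 change of 2.31 and 10 of 12 at day 7 with a median of 2.41. The 12 genes summed to 50.7 to 172 CPM in irradiated colon at day 4 and 27.7 to 384 CPM at day 7, against 12.1 to 26.2 CPM in non-irradiated colon, with no overlap. The 9 endothelial genes summed to 6.26 to 28.7 CPM at day 4 and 5.34 to 20.9 CPM at day 7, against 4.65 to 12.8 CPM, and overlapped. In jejunum no fibroblast gene of 11 was called at day 4 (edgeR; 1 under 0.05 before adjustment) and 5 rose at day 7, the day of the Eng and Cdh5 calls. Their 12 genes summed to 8.03 to 68.6 CPM in irradiated jejunum at day 7, against 1.95 to 29.6 CPM in non-irradiated jejunum. Of genes on a pericyte list, 1 of 6 rose in colon at day 4 and 1 of 6 fell at day 7, and 1 of 4 rose in jejunum at each day. That list includes Anpep, which averaged 3418 CPM over all libraries. Without irradiation Anpep was 3127-fold higher in jejunum than in colon (edgeR adjusted p = 1.73e-27), so the list is no clean measure of pericytes. Smooth muscle genes gave no call among 7 in colon at either day (edgeR; 1 and 0 under 0.05 before adjustment at day 4 and day 7) and 3 of 6 higher in jejunum at each day. Of 10 leukocyte genes, 5 rose and 1 fell in colon at day 4, and 7 of 9 fell in jejunum at day 7. No mast cell gene rose and all 6 fell in colon at both days, while none of 9 epithelial genes was called in colon at day 4 (edgeR; 1 under 0.05 before adjustment). Epithelial sums in irradiated colon at day 4 were 13284 to 19489 CPM, against 14264 to 17225 CPM in non-irradiated colon. What part stromal content had in the Eng, Esam and Cdh5 results was not tested.

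Within groups the 9 genes moved together from library to library, and they moved with fibroblast genes. Over all libraries of the 22 groups, taken as deviations from group means of log2 CPM, each gene was correlated with the mean of the other 8: Plvap had the highest r, 0.87, followed by Eng (0.83), Kdr (0.79), Pecam1 (0.78), Vwf and Tek (0.75 each), Emcn (0.72), Cdh5 (0.71) and Esam (0.60). Esam was the least coupled in colon too, with r = 0.49. These values describe libraries that share tissue, depth and processing, and many of the levels rest on few counts. Of 11633 genes ranked by the same measure against the mean of the 9, the 8 most alike were Serpinh1 (r = 0.90), a collagen chaperone, the collagen genes Col6a1, Col6a2, Col3a1, Col4a2 and Col15a1, the proteoglycan gene Dcn and the matrix gene Sparc (r between 0.873 and 0.887). Of these 8, 5 were on the fibroblast list, and Col4a2 encodes a chain of basement membrane collagen. By list, the deviations of the endothelial mean correlated with the fibroblast sum at r = 0.898, with the other endothelial genes at 0.802 and with lymphatic genes at 0.732. For leukocyte genes r was 0.692, for smooth muscle genes 0.618, for the other receptor genes 0.610 and for mast cell genes 0.236. Not every vascular list sum followed the 9 genes: leukocyte adhesion genes had r = 0.163, ligands of vessel growth 0.0245 and endothelial transcription factors -0.136. Pericyte genes had r = -0.114 (0.725 in colon, -0.466 in jejunum), platelet genes -0.321 (0.492 and -0.624) and epithelial genes -0.01. Each list entered as its summed CPM, so its genes of high level weigh most and a low r need not hold for the rest of the list. On the platelet list, Itga2b averaged 22.5 CPM over all libraries and Pf4 0.263 CPM.

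**Figure D3:**
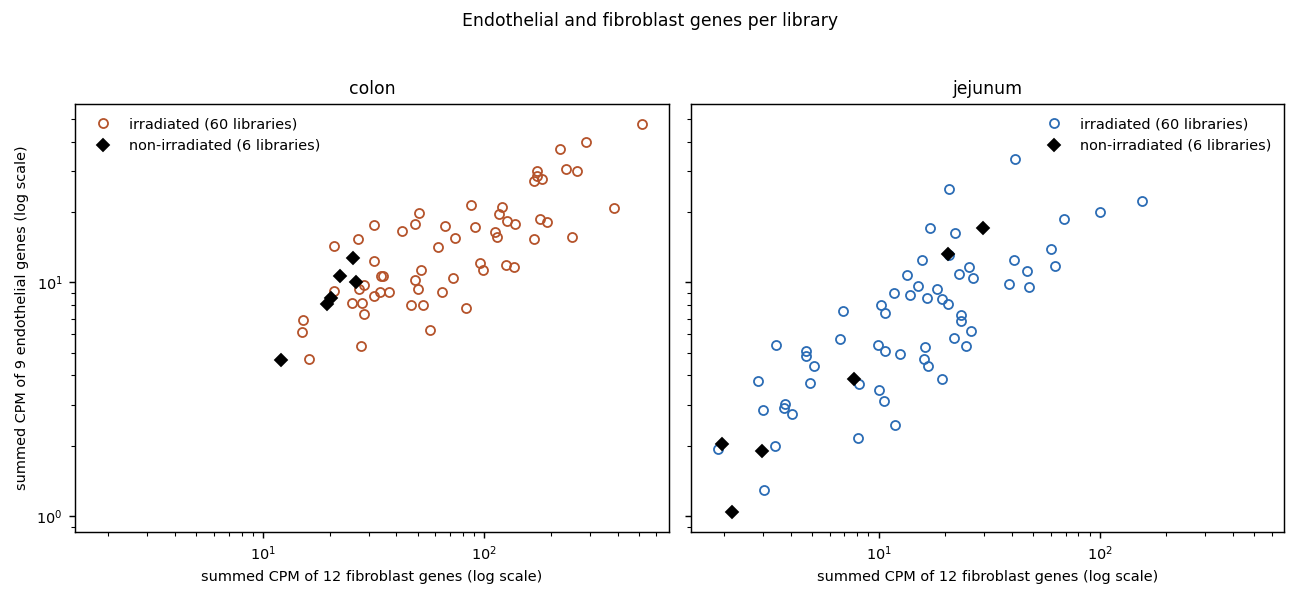
Summed CPM of the 9 endothelial genes against summed CPM of the 12 fibroblast genes for each library, on log axes, with irradiated libraries (60 per tissue) and non-irradiated libraries (6 per tissue) marked apart. In both tissues the 2 sums climb together, and the non-irradiated colon libraries sit at fibroblast sums of 12.1 to 26.2 CPM.

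Powder was compared with its oral vehicle in 4 settings, over 30 tests of the endothelial genes, and none was called (edgeR; 6 under 0.05 before adjustment and 0 by DESeq2). The lowest adjusted p was that of Esam in colon at day 4 (0.158). The other tests under 0.05 before adjustment were in jejunum at day 4, where all 7 tested genes had positive log2 changes with a median of 1.66, against -0.03 over all genes tested, and 0.008% of all genes were called. Plvap had 1.92, 2.10, 1.51, 12.5, 3.27 and 5.42 CPM in powder jejunum at day 4, against 1.56, 0.117, 0.203, 1.65, 1.14 and 0.268 CPM in oral vehicle jejunum. Only powder replicate 3 lay inside the vehicle range, and the log2 change was 2.36 ± 0.83, under 0.05 before adjustment only (5.12-fold; edgeR adjusted p = 0.886). Vwf had 0.568, 0.949, 1.01, 2.09, 0.485 and 1.54 CPM in powder jejunum, against 0.204, 0, 0.101, 1.08, 0.214 and 0.402 CPM in oral vehicle jejunum, and the ranges overlapped through vehicle replicate 4 (log2 1.83 ± 0.67; edgeR adjusted p = 0.988). Pecam1 (1.52 ± 0.63), Cdh5 (1.66 ± 0.74) and Kdr (1.81 ± 0.83) were also under 0.05 before adjustment, and Eng (1.39 ± 0.71) and Esam (0.42 ± 0.50) were not.

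In each group of that comparison replicate 4 was the highest library for all 9 genes, with endothelial sums of 33.9 CPM in powder and 10.9 CPM in vehicle jejunum and fibroblast sums of 41.4 and 23.0 CPM. Without the powder library the Plvap change was 1.81 ± 0.84, and without the vehicle library it was 2.62 ± 0.92. Fibroblast genes had a median change of 1.56 in the same comparison and smooth muscle genes one of 1.59, with none called (edgeR; 4 of 11 and 4 of 6 under 0.05 before adjustment). At day 7 in jejunum the signs were the other way: all 7 genes had negative changes, between -0.37 and -0.75, and none was under 0.05 before adjustment, where 0.008% of all genes were called. Plvap then had 0.811, 0.871, 0.129, 0.604, 2.67 and 0.588 CPM in powder jejunum, against 1.06, 0.699, 0.363, 0.525, 5.48 and 0.570 CPM in oral vehicle jejunum, and the ranges overlapped.

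In colon at day 4, where 11.8% of all genes were called between powder and vehicle, no endothelial gene was called and Esam alone was under 0.05 before adjustment. It had 3.94, 11.2, 5.24, 10.4, 14.7 and 11.9 CPM in powder colon, against 6.04, 4.95, 3.99, 8.56, 5.86 and 5.90 CPM in oral vehicle colon. In 4 powder libraries the level was above all vehicle libraries and in 2 it was not (log2 0.70; edgeR adjusted p = 0.158). At day 7 in colon, where 0% of all genes were called, no endothelial gene was under 0.05 before adjustment. The largest changes there were those of Cdh5 (log2 0.84 ± 0.79), Pecam1 (0.81 ± 0.48) and Eng (0.74 ± 0.59).

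The injection was compared with its own vehicle in 4 settings and 30 tests, with no endothelial gene called (edgeR; 1 under 0.05 before adjustment and 0 by DESeq2), and 0% of all genes were called in any of the 4. In colon at day 4, 8 of the 9 genes had negative changes and Esam had 0.23, with a median of -0.97, against 0.02 over all genes tested. Vwf had 1.37, 0.647, 0.303, 0.527, 0.762 and 0.507 CPM in injection colon, against 2.56, 3.76, 0.909, 1.95, 0.776 and 1.10 CPM in injected vehicle colon. The groups overlapped through injection replicate 1 (log2 -1.41 ± 0.63; edgeR adjusted p = 0.871). Eng had 6.90, 1.65, 1.31, 2.02, 1.84 and 1.62 CPM in injection colon, against 7.27, 10.7, 2.83, 7.50, 0.886 and 1.15 CPM in injected vehicle colon, where 4 libraries stood well above the other 2 (log2 -0.97 ± 0.70; edgeR adjusted p = 0.871). Fibroblast genes had a median of -1.08 in this comparison. Without injection replicate 1, which was the highest of its group for 8 of the 9 genes, Eng was at -1.59 ± 0.72 and Cdh5 at -2.42 ± 0.89, and neither passed (edgeR adjusted p = 0.291 and 0.198).

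At day 7 in colon the changes with injection were between -0.50 for Vwf and 0.26 for Tek on the log2 scale. In jejunum at day 4, 5 of the 6 tested genes had positive changes with a median of 0.33, the farthest from 0 being Pecam1 (0.61 ± 0.48) and Esam (0.54 ± 0.34). In jejunum at day 7 the median was -0.13, and Vwf (-1.21 ± 0.74) lay farthest from 0. All of these changes were less than 2 standard errors from 0.

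The oral vehicle was compared with irradiation alone as a check of the handling. None of 30 tests of endothelial genes was called (edgeR; 0 under 0.05 before adjustment and 0 by DESeq2), with 0% of all genes called in colon and in jejunum at day 4, 0.00752% in colon at day 7 and 0.008% in jejunum at day 7, and no fold change exceeded 1.99-fold.

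Between day 4 and day 7, the gene with the most calls in colon was Esam. It fell in irradiated untreated colon to 3.81, 6.67, 3.33, 2.84, 1.74 and 3.05 CPM at day 7, against the day 4 values above (log2 -1.04 ± 0.34; edgeR adjusted p = 0.0153), where 36.5% of all genes changed. In powder colon it fell to 3.02, 4.97, 3.18, 3.34, 7.08 and 1.76 CPM at day 7, 2.42-fold below day 4 (log2 -1.28 ± 0.34; edgeR adjusted p = 0.00229), where 49.3% of all genes changed. In injection colon it had 3.37, 4.97, 7.62, 4.46, 4.13 and 5.96 CPM at day 7, against 9.20, 9.47, 7.53, 10.6, 9.46 and 5.58 CPM at day 4 (log2 -0.78 ± 0.27; edgeR adjusted p = 0.0275), where 40.8% of all genes changed. The ranges of the 2 days overlapped in all 3 groups. In oral vehicle colon (log2 -0.71; edgeR adjusted p = 0.113) and injected vehicle colon (-0.32; adjusted p = 0.405) it did not pass, and 27.4% of all genes changed in each; of all endothelial genes, 1 and 0 were under 0.05 before adjustment in these groups and DESeq2 called 0. Whether the change with time differed between treatments was not tested. These comparisons share their day 4 and day 7 libraries with the treatment comparisons above. The untreated call was lost in series 1 alone (log2 -0.30; edgeR adjusted p = 0.618) and with only the groups compared in the fit (adjusted p = 0.0549), and that in powder was lost in series 1 alone (log2 -0.88; adjusted p = 0.0977). Mitochondrial shares were lower at day 7 in the 3 groups with an Esam call: 3.28% to 4.89%, against 8.22% to 11.0% at day 4, in untreated colon, 3.05% to 4.81%, against 6.91% to 12.1%, in powder colon and 4.86% to 11.0%, against 8.08% to 13.5%, in injection colon. Their part in these calls was not tested.

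In powder colon the remaining members were not called, yet in series 1 alone Eng was higher at day 7 than at day 4 (log2 1.82; edgeR adjusted p = 0.0149), and leaving out day 4 replicate 6, the highest of its group for 8 of the 9 genes, gave higher day 7 levels of Pecam1 (log2 1.12; edgeR adjusted p = 0.0422) and Eng (1.58; adjusted p = 0.0335). No endothelial gene but Esam was called in the other colon comparisons over time.

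In jejunum, powder and injection each gave 2 lower endothelial genes at day 7 than at day 4, and the other 3 groups gave none. In powder jejunum Pecam1 had 1.26, 0.653, 0.0645, 0.553, 1.81 and 0.641 CPM at day 7, against 1.42, 1.08, 2.16, 5.42, 2.48 and 2.53 CPM at day 4 (log2 -1.54 ± 0.62; edgeR adjusted p = 0.0484), and Plvap fell as well (log2 -2.13 ± 0.80; adjusted p = 0.0365), where 36.9% of all genes changed. The ranges overlapped for both. Without day 4 replicate 4 neither was called (edgeR adjusted p = 0.143 for Pecam1 and 0.130 for Plvap), and in series 1 alone neither was called either (adjusted p = 0.345 and 0.317). Fibroblast genes had a median change of 0.58 over time in powder jejunum, the other way from the endothelial genes (-1.50), and none of 11 was called (edgeR; 1 under 0.05 before adjustment). In injection jejunum Vwf fell to 0.105, 0, 0, 0.285, 0.0539 and 0.535 CPM at day 7, against 1.12, 0.745, 1.92, 2.72, 0.109 and 0.504 CPM at day 4, a 6.91-fold change (log2 -2.79 ± 0.72; edgeR adjusted p = 0.00471), where 41% of all genes changed. Pecam1 had 0.685, 0.902, 0.428, 0.666, 0.808 and 1.38 CPM at day 7 there, against 1.68, 2.07, 2.23, 4.58, 0.492 and 2.01 CPM at day 4 (log2 -1.47 ± 0.48; edgeR adjusted p = 0.0195). In both cases 4 or more day 4 libraries were above all day 7 libraries and 1 or more lay inside their range. Kdr (log2 -1.52; edgeR adjusted p = 0.0574) and Plvap (-1.82; adjusted p = 0.0701) did not pass, and both did without day 7 replicate 6 (adjusted p = 0.0357 and 0.0356). All 7 tested smooth muscle genes fell in the same comparison, and the fibroblast median was -0.88. The Vwf call rests on few reads, as its median count over the 66 jejunum libraries was 8. Mitochondrial transcripts took 6.23% to 9.20% of the counts in injection jejunum at day 7, against 13.0% to 39.3% at day 4, with no overlap, and 4.28% to 6.48% in powder jejunum at day 7, against 8.18% to 11.2% at day 4. What part this had in the jejunum calls was not tested.

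For untreated, oral vehicle and injected vehicle jejunum no endothelial gene was called over time (edgeR; 0 under 0.05 before adjustment in each and 0 by DESeq2), where 41%, 25.7% and 50.6% of all genes changed.

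The 22 groups were also put in order of their mean levels, by gene and tissue. Eng was lowest in non-irradiated tissue in both colon (0.389 ± 0.141 CPM) and jejunum (0.276 ± 0.395 CPM). In colon its other group means ran from 1.77 ± 1.57 CPM in powder at day 4 through 3.19 ± 2.19 CPM in untreated rats at day 4 to 5.06 ± 4.02 CPM in injected vehicle at day 4, and in jejunum from 0.680 ± 0.499 CPM in oral vehicle at day 4 to 1.84 ± 1.68 CPM in powder at day 4. Plvap had its highest jejunum mean in powder at day 4 too, 4.45 CPM. The injected groups are all of library series 3, so in this order their treatment and their library series cannot be told apart. In colon the injected vehicle group of day 4 had the highest mean of 7 genes, Pecam1, Cdh5, Vwf, Tek, Emcn, Plvap and Eng, and non-irradiated colon the lowest of 5, Cdh5, Kdr, Tek, Plvap and Eng. For each of the 9 genes in each tissue, none of the 10 steps between neighbouring groups in this order was larger than the bigger SD of the pair. The SD is the spread of libraries, so this does not show that neighbouring means were alike. In colon the Eng step from non-irradiated tissue to powder at day 4 was 1.38 CPM, with no overlap. The highest non-irradiated library had 0.585 CPM and the lowest powder library 0.708 CPM. What share of all genes did not overlap between these groups was not determined, so this does not set Eng apart.

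**Figure D4:**
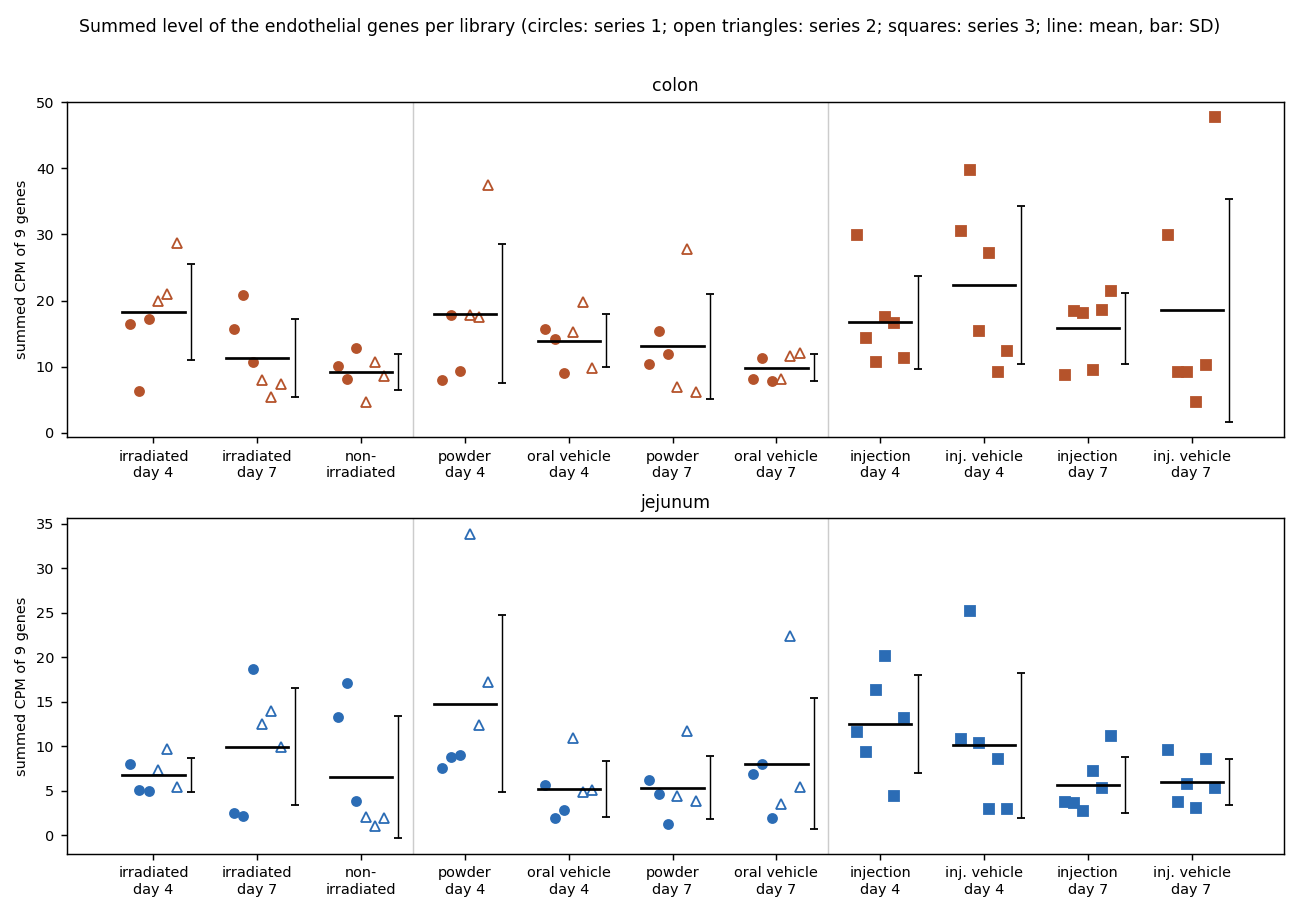
Summed CPM of the 9 endothelial genes in each library of all 22 groups, with circles, triangles and squares for library series 1, 2 and 3. Irradiated untreated colon at day 4 ran from 6.26 to 28.7 CPM and non-irradiated colon from 4.65 to 12.8 CPM, and in some groups 1 library lies well above the others, as in oral vehicle jejunum at day 7, where the highest had 22.4 CPM and the next 8.06 CPM.

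Emcn, with the lowest counts, passed the filter on low counts only in the injected colon groups and in the comparison of tissues, Tek did not pass it in jejunum, and Cdh5 did not pass it in the injected jejunum groups. With no filter, Emcn had a log2 change of 0.47 ± 0.92 in irradiated colon at day 4 (edgeR adjusted p = 0.754) and 1.23 ± 0.86 at day 7 (adjusted p = 0.250). Tek had 1.34 ± 0.74 in irradiated jejunum at day 4 (edgeR adjusted p = 0.172) and 1.47 ± 0.71 at day 7 (adjusted p = 0.0976). None of these passed. Over time in the injected jejunum groups 3 changes passed with no filter: Cdh5 (log2 -2.27 ± 0.73; edgeR adjusted p = 0.0215) and Emcn (-2.14 ± 0.70; adjusted p = 0.0236) were lower at day 7 than at day 4 in injection jejunum, and Tek (-1.93 ± 0.75; adjusted p = 0.0488) in injected vehicle jejunum. Median counts were 2 per colon library for Emcn and 4 per jejunum library for Tek, so changes with irradiation of the size given here could be missed. What size of change could be detected at this depth was not tested.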

How the data were processed

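The authors deposited raw counts of reads per gene symbol, with no normalization, in 2 tables that together hold 168 library columns. All columns matched a label, and the 36 libraries present in both tables were used once. STAR 2.7.10a and the build mRatBN7.2 are named per the submitters' processing notes, while for the counter, annotation and strand nothing is stated in the sources used here, so reads of overlapping or antisense genes could have been counted with a member.

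Counts were tested with the edgeR 4.0.16 quasi-likelihood F test in R 4.3.3, with TMM factors, the filterByExpr filter by group (minimum count 10, minimum total 15) and Benjamini-Hochberg adjustment over all genes tested, and genes were called at an adjusted p under 0.05. Each tissue was fitted apart, with 42 libraries and a library series term for irradiation, powder, oral vehicle and time, and 24 libraries for the injected groups. Comparisons of tissues used 84 libraries. Every adjusted p of a gene is from edgeR unless DESeq2 1.42.0 is named. Library series may reflect more than 1 difference in handling. Correlations used log2 CPM with a prior count of 0.5. All 9 members are named. Of the context lists only some genes are named, and these are not always the genes with the smallest p. Members and lists were chosen with earlier results of these data known. Promoters are from RefSeq, assembly GRCr8. No 2 libraries of a group were alike within sampling noise.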

Additional observations from a re-analysis of the deposited data

Results flagged for a closer look

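In 46 of 198 sets of 6 libraries (9 genes in 22 groups), 1 library lay far from the other 5 of its group for an endothelial gene, by the gap to its nearest neighbour over the range of the group (Dixon's test at the 95% level). The test would flag about 1 set in 20 if the sets were independent and their values normally distributed. Neither can be assumed here, as the genes had low counts and moved together within groups, so the 46 sets cannot be set against that rate. In 45 sets the library was high and in 1, Esam at 4.27 CPM in injected vehicle colon at day 4 (replicate 5), it was low. The sets came from 17 libraries, and 2 libraries gave 8 sets each.

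Powder colon at day 4, replicate 6, was high for Pecam1 at 4.72 CPM, Cdh5 at 1.92, Kdr at 2.05, Vwf at 2.92, Tek at 1.84, Emcn at 0.835, Plvap at 6.39 and Eng at 4.89 CPM. Oral vehicle jejunum at day 7, replicate 5, was high for Pecam1 at 3.23 CPM, Cdh5 at 1.15, Kdr at 2.48, Vwf at 1.28, Tek at 0.840, Emcn at 0.929, Plvap at 5.48 and Eng at 3.94 CPM. Fibroblast genes summed to 221 CPM in the first library and 156 CPM in the second.

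Injection colon at day 4, replicate 1, was high for Pecam1 at 5.22 CPM, Cdh5 at 1.19, Tek at 0.663 and Eng at 6.90 CPM. Powder jejunum at day 4, replicate 4, was high for Pecam1 at 5.42 CPM, Cdh5 at 1.54, Plvap at 12.5 and Eng at 5.17 CPM, and oral vehicle jejunum at day 4, replicate 4, for Cdh5 at 0.574 CPM, Kdr at 1.15 and Vwf at 1.08 CPM. Powder colon at day 7, replicate 5, was high for Vwf at 2.45 CPM, Tek at 0.662 and Emcn at 0.233 CPM, and powder jejunum at day 7, replicate 5, for Plvap at 2.67 CPM. Injected vehicle jejunum at day 4, replicate 2, was high for Cdh5 at 1.15 CPM, Plvap at 9.16 and Eng at 3.93 CPM.

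Irradiated untreated colon at day 4, replicate 6, was high for Cdh5 at 1.17 CPM, Kdr at 0.945 and Tek at 1.12 CPM. In oral vehicle colon at day 7, replicate 5 was high for Cdh5 at 0.570 CPM and Vwf at 1.40 CPM, and replicate 6 for Kdr at 0.759 CPM. Injected vehicle colon at day 7, replicate 6, was high for Pecam1 at 5.05 CPM, and injection jejunum at day 7, replicate 6, for Cdh5 at 0.401 CPM. In non-irradiated colon replicate 3 was high for Pecam1 at 4.25 CPM, and in non-irradiated jejunum replicate 1 was high for Cdh5 at 0.295 CPM and replicate 2 for Eng at 1.04 CPM.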

How the results depend on the processing

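Of 1892 fold changes of single endothelial genes under an alternative, 1838 kept their direction and their side of the threshold, 34 passed it newly, 18 lost it and 2 reversed. Both reversals were of Plvap in library series 2 alone: log2 3.79 for irradiated over non-irradiated jejunum at day 4 and -3.30 for non-irradiated jejunum over colon. The number of genes called did not move by over 1.5 times in 17 of 29 comparisons. In colon, the 2 calls at day 4 became 4 under DESeq2, 1 with no filter, 1 in series 1 alone and 1 to 3 on leaving out a library, and the 1 call at day 7 became 4 in series 1 and 0 in series 2. In jejunum, the 0 calls at day 4 became 4 in series 2 and up to 2 on leaving out a library, and the 2 calls at day 7 became 0 with only the groups compared in the fit, where neither gene passed the filter on low counts, 0 in series 1 and 6 in series 2. The difference between tissues at day 7 became 2 in series 2, and non-irradiated jejunum against colon gave 1 to 2 on leaving out a library, 2 in series 2, both lower in jejunum, and in series 1 the single call was of Kdr, higher in jejunum, in place of Esam. Between day 7 and day 4, untreated colon gave 0 with only the groups compared and 0 in series 1. Oral vehicle colon gave 1 with only the groups compared and 2 in series 1. Powder colon gave 1 to 3 and powder jejunum 0 to 3 on leaving out a library, and in series 1 the single call in powder colon was of Eng, higher at day 7, in place of Esam, lower. Powder jejunum also gave 1 with RLE factors, 1 with no filter, 4 with only the groups compared, 0 in series 1 and 1 in series 2. Injected vehicle jejunum gave 1 with no filter. Injection jejunum gave 4 under DESeq2, 4 with no filter and up to 4 on leaving out a library. The cause of these changes was not tested. Libraries were left out only where one lay far from its group. That choice was made from the same levels that were then tested, so calls gained in this way are no separate evidence. The labels do not say that replicate numbers pair libraries. Colon and jejunum libraries of the same group and number correlated at a mean r of 0.101, with 33 of 66 pairs over 0.1, and 26 of 66 colon libraries correlated best with their own number, a hint of pairing from the data and not from the design. With the replicate block no count moved, the 2 calls in colon at day 4 were still Eng (log2 3.02) and Esam (0.85), and no gene changed its call. Median counts of under 10 per library limit Cdh5, Kdr, Tek and Emcn in both tissues and Vwf in jejunum.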
